A study of Mus musculus with 10 samples.

Results

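The Siglecs, a family of cell-surface receptors that bind sialic acid on glycans, are described here in alveolar macrophages through 7 genes, Siglec5, Siglece, Siglec1, Cd33, Cd22, Siglecg and Siglech, out of 26173 genes in the table. The members were taken by gene symbol, with the levels of all transcript entries of an Entrez gene added together, which joined 17 of 45913 transcript entries. Siglec5 is the table's name for the mouse gene of Siglec-F (Entrez 233186, named Siglecf in RefSeq), and is not the human gene of that name.

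The study profiled mRNA of alveolar macrophages, which live in the air sacs of the lung, with and without Bach2, a repressor of transcription in immune cells. All mice were labelled C57BL/6, female and 16 weeks old, and the 10 samples fell into 5 groups of 2. In mice with a floxed Bach2 gene and Cre under Cd4, which is driven in T cells, knockout macrophages were taken as an aberrant-marker fraction (labelled KO_abnormal) and a normal-marker fraction (KO_normal), beside macrophages of the conditional control mice. The other groups were macrophages of germline Bach2 knockout mice and of wild-type mice. With this Cre, a loss of Bach2 in the macrophages themselves cannot be taken for granted. The labels do not say which surface markers separated the fractions, and Siglec-F protein is in common use as a marker of alveolar macrophages, so a Siglec difference between the fractions cannot be told apart from the choice of the cells. The germline knockout is not labelled as divided in this way.

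Values are FPKM, a level scaled to transcript length and library size, as deposited, and 1 read stood for about 0.0532 to 0.0677 FPKM on a transcript of 2 kb. The paired samples of a group resembled repeat runs of 1 library. Samples of 1 group correlated at 0.996 to 0.999 over genes after log2(FPKM + 1), and samples from separate groups at 0.845 to 0.929. Each pair was therefore counted as 1 library, so there is no test and no p-value. For the same reason, runs that do not overlap between groups carry no weight as replication. How many of all genes show such runs was not counted. A gene was called higher or lower where log2(FPKM + 1) differed by 2 or more, which is 4-fold, for the means and for each pairing of runs, and where the library with more of it had 20 FPKM or above. Adding 1 makes the change of low genes look smaller than it is. The labels could not be checked by Bach2, which was under 0.06 FPKM in every library, the wild type included. The germline knockout and wild-type libraries went against their label of female, with the Y-linked gene Eif2s3y at 39.9 and 60.8 FPKM and Xist, which marks an inactive X, under 0.01 FPKM. Of 15 alveolar macrophage marker genes, 13 were at 1 FPKM or more in the aberrant-marker library, 15 in the normal-marker library, 15 in the conditional control, 13 in the germline knockout and 15 in the wild type. This count does not show how far a marker fell, which is given below.

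As background, most Siglecs carry inhibitory tyrosine motifs in the cytoplasmic tail that recruit the phosphatases encoded by Ptpn6 and Ptpn11 and so restrain activation of the cell. Siglec-F and Siglec-E belong to the fast-evolving group related to Cd33, while Siglec1 and Cd22 are among the members conserved across mammals. Siglec1, or sialoadhesin, has a long extracellular part and no inhibitory motif and serves adhesion and capture of sialylated particles. Siglec-H lacks such a motif too and signals through the adaptor encoded by Tyrobp. In mouse lung, Siglec-F is known as a receptor of alveolar macrophages and eosinophils, whereas Cd22 and Siglecg are known from B cells and Siglech from plasmacytoid dendritic cells.

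The Siglec genes differed in how they stood in the aberrant-marker and germline knockout libraries. Siglec5 and Siglece were lower in both of these libraries than in their controls. Cd33 and Cd22 were present throughout and did not pass the 4-fold rule in any comparison. Siglec1 was low everywhere and far under 1 read in the germline knockout, and Siglecg and Siglech were not detected. In all, 5 of the 7 members passed the filter of 1 FPKM in at least 2 samples, and all 7 are accounted for below. In bulk RNA, fewer cells that express a gene and less of its RNA per cell cannot be told apart, which holds for every value that follows.

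**Figure D1:**
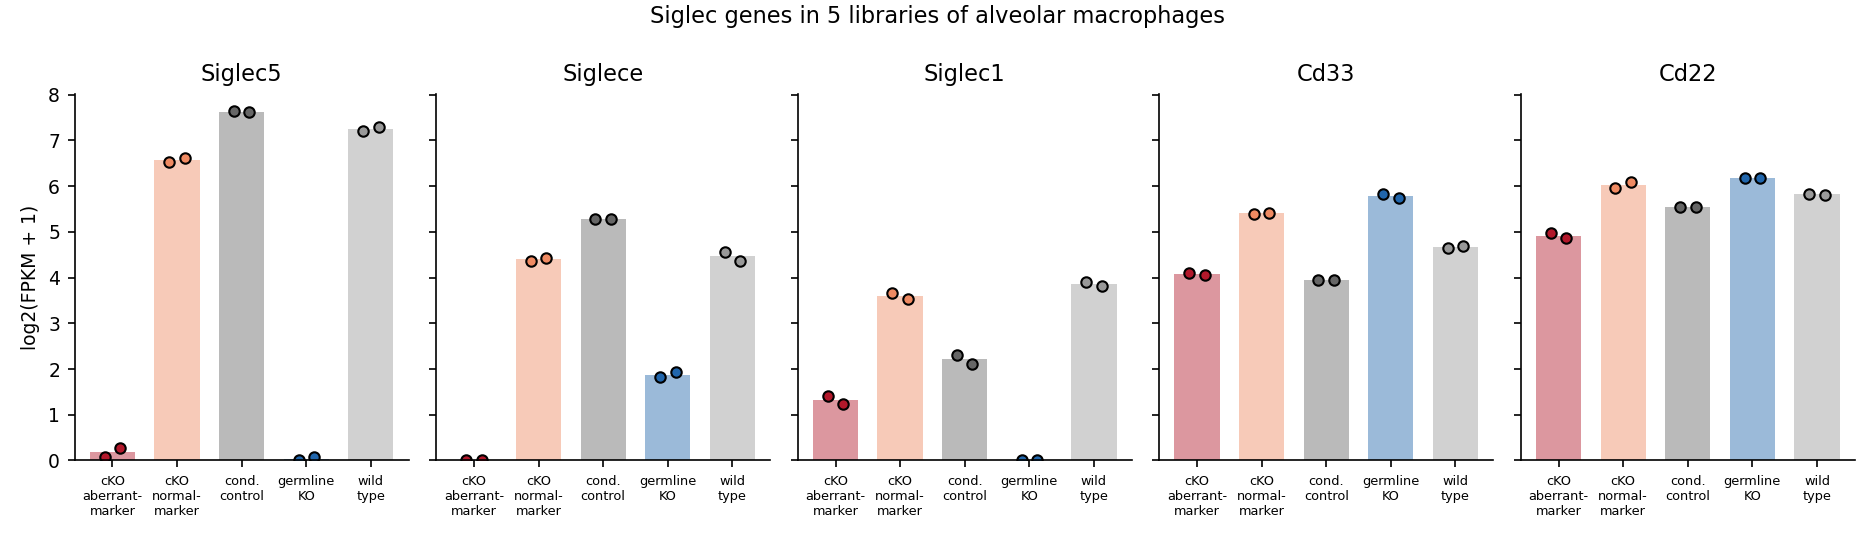
Levels of 5 Siglec genes as log2(FPKM + 1) in the libraries named on the horizontal axis (cKO, conditional knockout; cond., conditional), with bars for the mean of 2 runs and points for the runs. Siglec5 and Siglece are near or at the baseline in the aberrant-marker library and low in the germline knockout, while Cd33 and Cd22 have high bars in all 5 libraries.

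Siglec-F transcripts were all but absent from aberrant-marker and germline knockout macrophages. Siglec5 was at 0.0526 and 0.215 FPKM in the runs of the aberrant-marker library, at 91.9 and 96.3 FPKM in those of the normal-marker library and at 199 and 194 FPKM in those of the conditional control. In the other line it was listed at 0 and at 0.0493 FPKM in the germline knockout runs, against 146 and 156 FPKM in the wild-type runs. The knockout values amount to a few reads at most, and no run of either library came near a run of its control. The order of the means was conditional control, wild type, normal-marker, aberrant-marker and germline knockout, with no overlap of runs between neighbours, although the 2 lowest libraries both lie at the limit of detection. On the log2(FPKM + 1) scale the difference was -7.45 between the aberrant-marker library and the conditional control, -6.39 between the aberrant-marker and normal-marker libraries and -7.21 between the germline knockout and the wild type. The normal-marker library stood at -1.06 against the conditional control (-0.68 against the wild type) and was not called, and the wild type stood at -0.38 against the conditional control. Siglec5 thus held the 484th highest mean of all genes in the conditional control and the 661st in the wild type, against the 10003rd in the aberrant-marker library and the 9824th in the germline knockout.

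A fall of this depth from this level was rare in the table. Of 642 genes at 100 to 300 FPKM in the conditional control, 4 were under 0.5 FPKM in the aberrant-marker library, namely Siglec5, the scavenger receptor gene Marco, the lipid droplet gene Cidec and Perp. Of 676 genes in that range in the wild type, 5 were under 0.5 FPKM in the germline knockout, namely Siglec5, Perp, Epcam, the formyl peptide receptor gene Fpr2 and Igflr1. Between the control libraries 0 of 642 genes of the conditional control and 0 of 676 of the wild type were so reduced in the other. These genes were looked up after the values of Siglec5 had been seen. The 3 genes whose profile over the 5 libraries lay closest to that of Siglec5, among 5341 candidates at 20 FPKM or more somewhere, were Cidec, the neuropeptide gene Gal and the ribonuclease gene Ear1, at root mean square distances of 0.54, 0.56 and 0.66 log2 units. Cidec and Ear1 also stand in the list of alveolar macrophage markers. Cidec was at 0.266 FPKM in the aberrant-marker library, 94.6 FPKM in the normal-marker library and 299 in the conditional control, and it was listed at 0 in the germline knockout and at 405 FPKM in the wild type.

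Siglec5 reads were divided among 4 transcript entries, and this division was unstable where the sum was not. In the normal-marker library the 2 curated entries summed to 41.8 FPKM in one run and 56.7 in the other, and the 2 predicted entries to 50.2 and 39.6, while the gene as a whole differed by 0.07 log2 units between runs. The curated share of the gene was 52.3% in the normal-marker library, 51.5% in the conditional control and 43.9% in the wild type. No isoform of Siglec-F can therefore be singled out from these values. Markers of the eosinophil, the other lung cell known for Siglec-F, were read as well. Of 7 eosinophil markers, the defining genes Epx, Prg3 and Ccr3 were under 0.01 FPKM in all 5 libraries, and the granule gene Prg2, listed at 0 in 4 libraries, had 2.61 and 3.31 FPKM in the conditional control. The summed level of the list was 1.07 to 1.09 FPKM over the runs of the aberrant-marker library, 34.9 to 40.3 in the normal-marker library, 17.7 to 28.9 in the conditional control, 10.8 to 13.7 in the germline knockout and far under 1 read in the wild type, and its highest gene in the normal-marker library, the conditional control and the germline knockout was the ribonuclease gene Ear6.

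Siglece, the gene of the inhibitory receptor Siglec-E of myeloid cells, followed the same pattern with a smaller fall in the germline knockout. It was listed at 0 in both runs of the aberrant-marker library, against 19.7 and 20.4 FPKM in the normal-marker library and 38.2 and 37.9 FPKM in the conditional control. In the other line Siglece was at 2.52 and 2.81 FPKM in the germline knockout, against 22.7 and 19.5 FPKM in the wild type. Groups did not overlap in any of the called comparisons, which the rule for a call requires, while the wild-type and normal-marker runs did. The log2 difference was -5.29 for the aberrant-marker library against the conditional control, -4.40 against the normal-marker library and -2.59 for the germline knockout against the wild type, where the ratio of the means was 7.91. The last call rested on the floor of 20 FPKM, since without the wild-type run at 22.7 FPKM the remaining run lay under it and Siglece was no longer called. In the same way the call against the normal-marker library was lost without that library's run at 20.4 FPKM. Listing at 0 is less telling at this level than at that of Siglec5. Of 1850 genes at 20 to 50 FPKM in the conditional control, 4.49% were under 0.5 FPKM in the aberrant-marker library and 1.57% in the wild type. The profiles closest to that of Siglece were those of H6pd, Mavs and Ptplad2, at distances of 0.22, 0.28 and 0.32 log2 units over the 5 libraries.

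Siglec5 and Siglece lie in a cluster with Siglecg and Cd33 on chromosome 7 of the mouse. In GRCm38.p6, RefSeq places Siglecf at chr7:43351341-43359475, Siglecg at chr7:43408192-43418349, Cd33 at chr7:43527399-43537424 and Siglece at chr7:43648882-43672044. Promoters of 6 of the 7 members were at hand from RefSeq, and that of Siglec1 was not. The starts used for Siglece and Cd33 are transcript starts that lie inside these gene spans, and the Cd33 window overlaps an exon of another Cd33 transcript. The Siglecg, Siglech and Cd22 windows overlap exons of their own genes too, and the Cd22 window lies inside its gene span. The 250 bases before the start are shown for Siglecf and Siglece because these members were low in the same libraries, with the PU.1-type box GAGGAAG and the ETS-type core GGAAGT, sites of factors that act in macrophages, in capitals on either strand.
Siglecf, chr7:43351091-43351340, plus strand: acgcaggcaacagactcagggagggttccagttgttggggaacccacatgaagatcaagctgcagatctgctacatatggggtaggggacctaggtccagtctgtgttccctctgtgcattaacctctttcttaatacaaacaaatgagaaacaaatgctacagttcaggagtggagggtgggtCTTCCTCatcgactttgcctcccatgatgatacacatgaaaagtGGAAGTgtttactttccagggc
Siglece, chr7:43660162-43660411, minus strand: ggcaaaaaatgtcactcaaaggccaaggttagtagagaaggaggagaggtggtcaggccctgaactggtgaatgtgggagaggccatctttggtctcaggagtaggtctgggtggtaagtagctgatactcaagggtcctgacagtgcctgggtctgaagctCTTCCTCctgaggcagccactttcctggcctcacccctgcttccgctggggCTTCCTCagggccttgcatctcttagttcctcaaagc
GAGGAAG was matched 1 time in the Siglecf window, 66 bases before the start, and 2 times in the Siglece window, 88 and 37 bases before it. The box also occurred in the windows of Cd33 and of Siglecg, a gene that was not detected, and in 10.6% of 32851 promoter windows of the same length. A further Siglecg window, from another start, had no match. GGAAGT occurred in the windows of Siglecf, Cd33 and Siglech and in 19.7% of all windows. The AP-1 and Bach core TGACTCA (equal to TGAGTCA on the other strand, 4.46% of windows), the Maf core TGCTGA (16.1%) and the core of the interferon response element (2.98%) had no match in any member's window. The RUNX core TGTGGT (14.0%) was matched in Cd33 and Siglech. The motifs were chosen after the sequences had been read, GAGGAAG and GGAAGT do not overlap each other in these windows, and such matches describe letters and not bound sites.

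The Siglecf window had its longest stretch in common with that of Cd33, a neighbour in the cluster that was not called lower in any comparison. The stretches of both are shown for this reason, with the 16 identical bases in capitals.
Siglecf, chr7:43351306-43351336, plus strand: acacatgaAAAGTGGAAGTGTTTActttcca
Cd33, chr7:43533306-43533336, minus strand: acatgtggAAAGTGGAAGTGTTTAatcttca
They began 35 and 165 bases before the start and had 25 identical bases in 31. The longest run that any other pair of members' windows had in common was 10 bases, between Siglece and Siglecg.

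Cd33, the founding member of the group to which Siglec-F and Siglec-E belong, was present in every library. Its level was 16.2 and 15.8 FPKM in the aberrant-marker library, 41.2 and 41.6 FPKM in the normal-marker library and 14.4 and 14.3 FPKM in the conditional control. It was 56.1 and 52.7 FPKM in the germline knockout, against 24.2 and 24.8 FPKM in the wild type. The germline knockout and normal-marker libraries were thus high and the aberrant-marker and conditional control libraries low, without overlap of runs between groups. The ratio of means was 2.22 for the germline knockout over the wild type, 2.88 for the normal-marker library over the conditional control and 1.11 for the aberrant-marker library over the conditional control, and none of these was called. The wild type over the conditional control gave 1.70, so the control libraries themselves differed. Against the wild type, the aberrant-marker library stood at -0.59 log2 units in place of 0.14 against the conditional control, which turned the direction round. The level of Cd33 rested mostly on 1 of its 2 curated transcripts, of 5728 bases in GENCODE M21. The other transcript, of 1962 bases, held 1.58% of the gene in the aberrant-marker library, 6.93% in the normal-marker library, 42.3% in the conditional control, 0.627% in the germline knockout and 1.20% in the wild type. The closest profiles were those of Calu, the cathepsin gene Ctsk and Uvrag, at distances of 0.06, 0.13 and 0.14 log2 units.

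**Figure D2:**
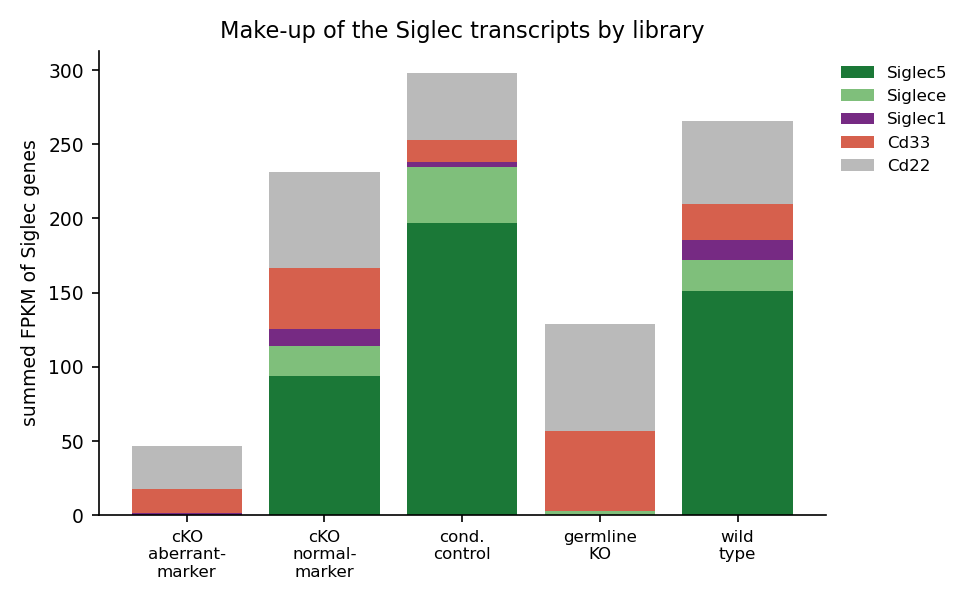
Summed FPKM of the 5 Siglec genes that passed the filter, in each library, stacked by gene. Siglec5 makes up 40.7% of the sum in the normal-marker library, 66.0% in the conditional control and 56.9% in the wild type, and under 1% in the aberrant-marker and germline knockout libraries, where Cd22 and Cd33 make up most of it.

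The summed level of the 7 genes was 46.8 FPKM in the aberrant-marker library, 231 FPKM in the normal-marker library and 298 in the conditional control, and 129 in the germline knockout against 265 in the wild type. Siglec5 supplied 0.286% of that sum in the aberrant-marker library and 0.0192% in the germline knockout. Cd33 supplied 34.1% in the aberrant-marker library and 42.3% in the germline knockout, against 4.82% in the conditional control and 9.22% in the wild type. Cd22 supplied 62.4% and 55.6% in these knockout libraries, against 15.2% and 20.9% in their controls. The make-up plot of the Siglec sum shows these shares, and since the parts of a sum are tied to each other, a higher share is not a higher level.

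Cd22, a receptor of B cells, gave levels in all 5 libraries that rested on predicted transcript models. As a gene it was at 30.3 and 28.0 FPKM in the aberrant-marker library, 61.6 and 67.2 FPKM in the normal-marker library and 45.4 and 45.3 FPKM in the conditional control. It was 71.4 and 71.8 FPKM in the germline knockout, against 55.7 and 55.2 FPKM in the wild type. The aberrant-marker library was the lowest and the germline knockout the highest. Runs of different groups did not overlap, but runs were not counted as replicates. Differences from the control were -0.62 log2 units in the aberrant-marker library, 0.50 in the normal-marker library and 0.36 in the germline knockout, all far from the 4-fold rule. However, 2 predicted models held 95.8% of the level in the aberrant-marker library, 97.6% in the normal-marker library, 97.5% in the conditional control, 85.3% in the germline knockout and 90.3% in the wild type. The 4 curated entries summed to 1.48 and 0.990 FPKM in the aberrant-marker library, 1.33 and 1.73 FPKM in the normal-marker library and 1.01 and 1.29 FPKM in the conditional control. They summed to 10.8 and 10.2 FPKM in the germline knockout, against 2.73 and 8.04 FPKM in the wild type and the wild-type runs lay further apart than the group means. From the curated entries alone the aberrant-marker library was at 0.06 log2 units against the conditional control, with the sign of the difference turned round.

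**Figure D3:**
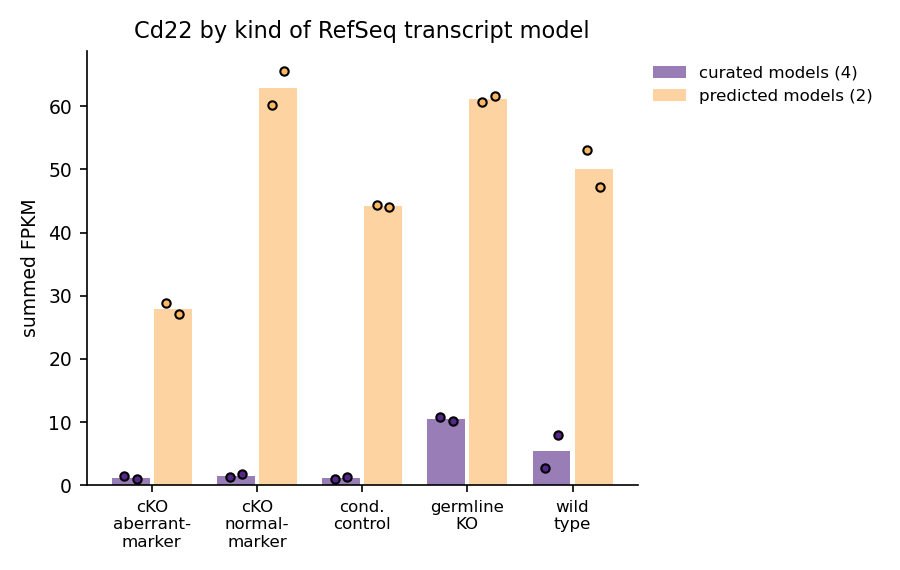
Summed FPKM of the 4 curated and the 2 predicted RefSeq models of Cd22 in each library, with bars for the mean of 2 runs and points for the runs. The predicted models lie between 27.9 and 62.9 FPKM, and the curated models reach 10.5 FPKM in the germline knockout and 5.38 FPKM in the wild type, with means of 1.15 to 1.53 FPKM in the other 3 libraries.

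Defining genes of B cells did not accompany Cd22. Of 10 B and plasma cell markers in the table, Ms4a1, Cd79a, Cd79b and Pax5 were under 0.01 FPKM in all 5 libraries. The list summed to 4.59 to 4.71 FPKM over the runs of the aberrant-marker library and 3.56 to 3.59 in the normal-marker library, nearly all from Fcrla, and was at 0 in the conditional control, the germline knockout and the wild type. The profiles closest to Cd22 were those of Hspa5, Sod2 and Ctnnb1, at distances of 0.06, 0.08 and 0.09 log2 units. Cd22 thus varied little and in the same order as these.

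Siglec1, the sialoadhesin gene of resident macrophages, was low in all libraries. It was at 1.64 and 1.34 FPKM in the aberrant-marker library, 11.6 and 10.6 FPKM in the normal-marker library and 3.97 and 3.32 FPKM in the conditional control. Both germline knockout runs were far under the worth of 1 read, against 13.97 and 12.98 FPKM in the wild type. The wild-type and normal-marker libraries were high, the conditional control and aberrant-marker libraries low, and no runs of different groups overlapped. The difference of the germline knockout from the wild type was -3.86 log2 units and that of the aberrant-marker from the normal-marker library -2.28, and neither reached the floor of 20 FPKM needed for a call. At this level absence is common. Of 3174 genes at 5 to 20 FPKM in the wild type, 16.1% were under 0.5 FPKM in the germline knockout and 8.48% in the conditional control. Against the conditional control, the normal-marker library stood at 1.38 log2 units and the wild type at 1.64. With the wild type as the reference, the normal-marker library stood at -0.26, so that the direction depended on the control. The profiles closest to that of Siglec1 were those of the kinase gene Rps6ka1, Rpusd4 and Cdc40, at distances of 0.35, 0.36 and 0.37 log2 units.

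Siglec1 is known as an interferon-induced gene, so genes of that response are given beside it. Of 20 interferon-stimulated genes, 13 were at 1 FPKM or more in the aberrant-marker library, 9 in the normal-marker library and 9 in the conditional control, and 12 in the germline knockout against 5 in the wild type. Their summed level was 174 to 178 FPKM over the runs of the aberrant-marker library, 104 to 106 in the normal-marker library and 84.7 to 86.4 in the conditional control, and 133 to 137 in the germline knockout against 36.4 to 38.7 in the wild type. The germline knockout, where Siglec1 was not detected, thus had a higher sum than the wild type, where Siglec1 had its highest level.

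Siglecg, known from B cells, and Siglech, known from plasmacytoid dendritic cells, were far under the worth of 1 read in all 10 samples and entered no comparison. Of 13 plasmacytoid dendritic cell markers, Klk1 and Ly6d were under 0.01 FPKM in all 5 libraries, while 8 were at 1 FPKM or more in the aberrant-marker library and 6 in each of the others. Their sum was 240 to 555 FPKM over the runs of the aberrant-marker library, 263 to 303 in the normal-marker library and 174 to 211 in the conditional control, and 213 to 594 in the germline knockout against 82.8 to 85.0 in the wild type. The runs of the aberrant-marker and germline knockout libraries thus lay far apart. Those libraries cannot be ranked against each other or the normal-marker library by this sum. Bst2 and Irf8, which other cells express too, made up most of it. Among the rest, Spib was at 13.1 FPKM and Ccr9 at 3.52 FPKM in the aberrant-marker library, short of a call. Spib was under 0.01 FPKM in the other libraries. Ccr9 was at 0.0236 FPKM in the normal-marker library and listed at 0 in the remaining ones. Smim5 went the other way, listed at 0 in the aberrant-marker library against 15.1 FPKM in the normal-marker library and 3.19 FPKM in the conditional control. Cox6a2 of this list was called higher in the germline knockout, at 57.2 FPKM, and was listed at 0 in the wild type. A further family gene that is no member, Mag, known from myelin, was listed at 0 in the aberrant-marker library, against 24.4 FPKM in the normal-marker library and 2.53 FPKM in the conditional control. It was at 23.7 FPKM in the germline knockout against 6.22 FPKM in the wild type. Mag passed the rule as higher in the normal-marker library than in the conditional control and as lower in the aberrant-marker than in the normal-marker library. Sequence sharing between members was slight, since of all pairs of these genes, Mag included, stretches of 30 bases were found in common in the GENCODE transcripts of Siglec5 and Siglecg (26 stretches) and of Cd22 and Cd33 (4 stretches).

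Between the aberrant-marker library and the conditional control 2 of 7 members were lower and 0 higher, where 3.76% of 11336 genes were lower, 4.09% higher and 7.85% either. The median log2 difference of the 5 members that passed the filter was -0.90, beside 0.00 over all genes compared. Between the aberrant-marker and normal-marker libraries the same 2 were lower, where 3.26% of genes were lower, 4.02% higher and 7.28% either, with medians of -2.28 and 0.02. Between the germline knockout and the wild type they were Siglec5 and Siglece again, where 3.36% of genes were lower, 2.73% higher and 6.10% either, with medians of -2.59 and 0.00. Between the normal-marker library and the conditional control 0 of 7 were called, where 1.77% of genes were, 0.935% higher and 0.838% lower, with medians of 0.50 and 0.00. For the wild type against the conditional control 0 of 7 were called, where 2.11% of genes were, 0.935% higher and 1.17% lower, with medians of 0.29 and 0.00. Of the 426 genes lower in the aberrant-marker library and the 381 lower in the germline knockout, each against its own control, 116 were lower in both, which is 27.2% of the first list and 30.4% of the second.

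**Figure D4:**
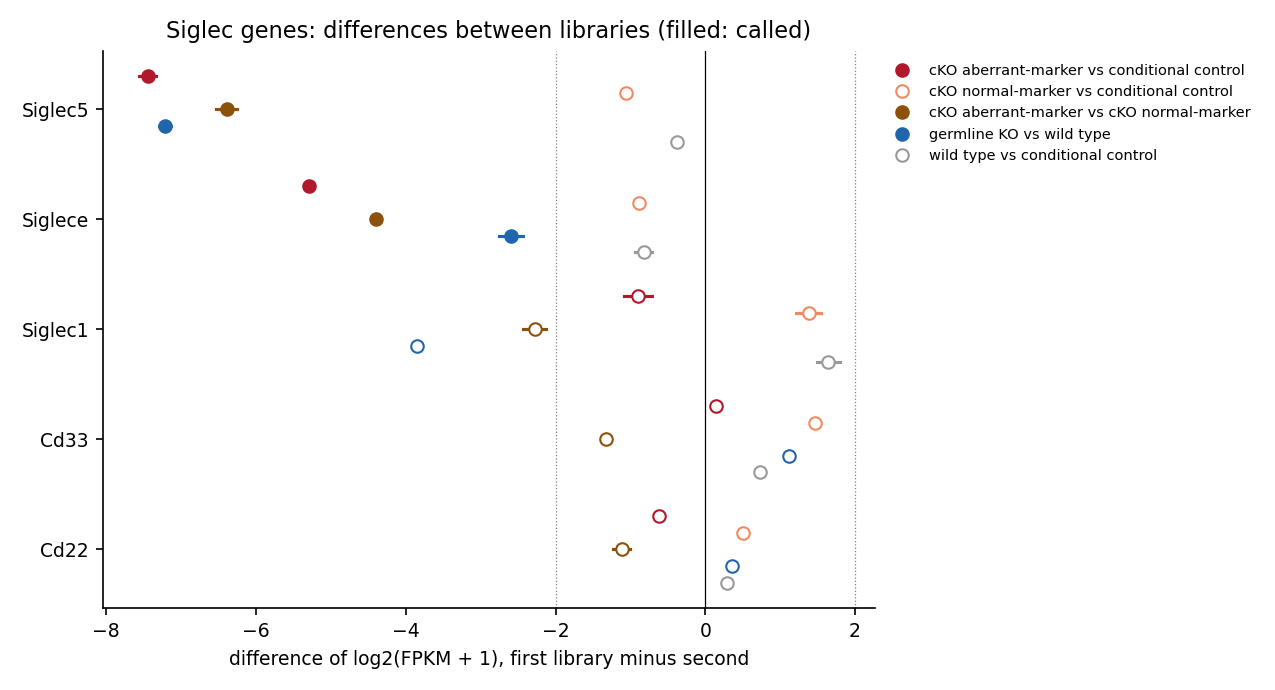
Differences of log2(FPKM + 1) for 5 Siglec genes in 5 comparisons, with points for the difference of means, horizontal lines for the range over pairings of runs and filled points for calls. Siglec5 and Siglece have filled points left of -2 in the 3 comparisons of an aberrant-marker or germline knockout library, and all other points are open.

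Markers of other cells differed between these libraries too. In the aberrant-marker library 10 of 12 genes of conventional dendritic cells were at 1 FPKM or more, summing to 3618 to 3639 FPKM over its runs, against 5 of 12 and 553 to 571 FPKM in the conditional control. The dendritic cell sum was lower in the germline knockout, at 496 to 509 FPKM with 5 of 12 genes, than in the wild type, at 733 to 740 FPKM with 4 of 12. Most of both sums came from Sirpa alone, at 343 FPKM in the germline knockout and 668 FPKM in the wild type. By the rule, 7 genes of this list were higher and 0 lower in the aberrant-marker library than in the conditional control. In the germline knockout 1 gene of this list was higher and 0 lower than in the wild type. Of 12 T cell markers, 10 were at 1 FPKM or more in the aberrant-marker library (285 to 291 FPKM), against 1 in the conditional control, Cd2, which alone gave 330 FPKM there. Between these libraries 4 of the list were called higher and 1 lower, Cd2, at 45.7 FPKM in the aberrant-marker library. Among the higher ones were Cd3g, Lck and Lat, at 24.1, 29.6 and 37.9 FPKM and listed at 0 in the conditional control. The T cell sum was 66.0 to 67.2 FPKM in the germline knockout with 2 of 12 genes, against 447 to 464 FPKM in the wild type with 1 of 12, again Cd2. Of 13 interstitial macrophage markers, 7 were at 1 FPKM or more in the aberrant-marker library (916 to 919 FPKM) and 5 in the conditional control (13.9 to 14.1 FPKM), and 5 in the germline knockout (377 to 382 FPKM) against 0 in the wild type. Of that list 5 genes were called higher and 0 lower in both comparisons. Lyve1, Folr2 and Cd163 of that list were under 0.01 FPKM in all 5 libraries. Alveolar macrophage markers fell more often than they rose. In the aberrant-marker library 9 of 15 were lower and 1 higher than in the conditional control (median log2 difference -2.62). In the germline knockout 7 of 15 were lower and 2 higher than in the wild type (median -1.51). Over all genes compared, 3.76% were lower and 4.09% higher in the first comparison, and 3.36% lower and 2.73% higher in the second. These shares stand beside the calls of the other lists of cell markers too. Chil3, the most abundant of them, was at 8291 FPKM in the aberrant-marker library against 9166 in the conditional control, and at 46574 FPKM in the germline knockout against 9278 in the wild type. The part of these cells in the Siglec differences was not tested.

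On small counts, genes that carry Siglec signals were called more often than all genes in the aberrant-marker library. In the germline knockout they were called about as often. Of 16 measured, 1 was higher and 2 lower in the aberrant-marker library than in the conditional control (median -0.78), and 1 was higher and 0 lower in the germline knockout than in the wild type (median 0.04), beside medians of 0.00 over all genes in both comparisons. Over all genes compared, 4.09% were higher and 3.76% lower in the first comparison, and 2.73% higher and 3.36% lower in the second. Ptpn6, the gene of the phosphatase recruited by the inhibitory motif, fell to 48.0 FPKM in the aberrant-marker library, against 289 FPKM in the conditional control, and was 88.1 FPKM in the germline knockout against 196 FPKM in the wild type, short of a call. The phospholipase gene Plcg2 was lower as well, at 5.70 FPKM in the aberrant-marker library against 41.7 FPKM in the conditional control. Against the normal-marker library Ptpn6 and Plcg2 were also called lower and Socs3 higher, and Dok1 was called higher against that library alone. This made 2 higher and 2 lower of 16, where 4.02% of all genes were higher and 3.26% lower. Socs3, a suppressor of cytokine signalling, rose to 123 FPKM in the aberrant-marker library against 15.9 FPKM in the conditional control, and to 116 FPKM in the germline knockout against 5.40 FPKM in the wild type. The adaptor gene Tyrobp stayed abundant without a call, at 693 FPKM in the aberrant-marker library, 1735 FPKM in the normal-marker library and 1899 in the conditional control, and at 1098 FPKM in the germline knockout against 1439 in the wild type. The related phosphatase gene Ptpn11 and the lipid phosphatase gene Inpp5d were not called in either knockout comparison, with Ptpn11 at 8.20 FPKM in the aberrant-marker library against 6.81 in the conditional control, and Inpp5d at 26.4 against 41.4 FPKM. In the germline knockout Ptpn11 was at 1.11 FPKM against 2.03 in the wild type, and Inpp5d at 8.72 against 8.07 FPKM. The docking protein gene Dok1 was 27.0 FPKM in the aberrant-marker library and 0.0446 FPKM in the normal-marker library, against 21.6 FPKM in the conditional control, but it was also listed at 0 in the wild type. It therefore separated the control libraries as well, as did Inpp5d, at 8.07 FPKM in the wild type against 41.4 FPKM in the conditional control.

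The sialic acid ligands of these receptors are made by synthesis enzymes and sialyltransferases and removed by sialidases. Of 9 synthesis genes, 8 passed the filter. Nans, the synthase of sialic acid, rose to 92.8 FPKM in the aberrant-marker library against 21.9 FPKM in the conditional control, and Slc35a1, the transporter of the activated sugar into the Golgi, was 1.01 FPKM in the aberrant-marker against 26.0 FPKM in the normal-marker library but was also listed at 0 in the wild type. No synthesis gene was called between the germline knockout and the wild type. Gne, the enzyme at the start of the pathway, was at 4.04 FPKM in the aberrant-marker library against 7.19 in the conditional control and at 11.2 FPKM in the germline knockout against 24.6 in the wild type. Cmas, which activates sialic acid, was at 24.9 against 45.5 FPKM and at 51.0 against 14.2 FPKM in the same comparisons. Cmah, which makes the glycolyl form of sialic acid, was under 1 FPKM in all 5 libraries.

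Of 20 sialyltransferase genes, 10 passed the filter, and 2 of them were higher and 0 lower in the aberrant-marker library than in the conditional control. Over all genes compared, 4.09% were higher and 3.76% lower there. St8sia4, which builds polysialic acid, rose to 64.8 FPKM in the aberrant-marker library, against 0.0264 FPKM in the normal-marker library and 0.186 FPKM in the conditional control. For St8sia4 the germline knockout had 12.3 FPKM against 0.00888 FPKM in the wild type, under the floor. St6galnac6 rose to 25.2 FPKM in the aberrant-marker library against 0.424 FPKM in the conditional control, though the wild type had 11.6 FPKM. St6galnac4 was at 17.1 FPKM in the aberrant-marker library and rose to 22.3 FPKM in the normal-marker library, against 0.0929 FPKM in the conditional control, and it was at 18.5 FPKM in the germline knockout against 0.859 FPKM in the wild type. The values at 17.1 and 18.5 FPKM lay under the floor. St3gal4, the most abundant of these genes in 4 of the 5 libraries, was at 49.0 FPKM in the aberrant-marker library, 50.8 FPKM in the normal-marker library and 43.4 in the conditional control, and at 35.8 FPKM in the germline knockout against 41.8 in the wild type. St6gal1, which makes the ligand of Cd22, was at 18.7 FPKM in the aberrant-marker library, 18.5 FPKM in the normal-marker library and 2.83 in the conditional control, and at 5.47 FPKM in the germline knockout against 9.01 in the wild type, without a call.

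**Figure D5:**
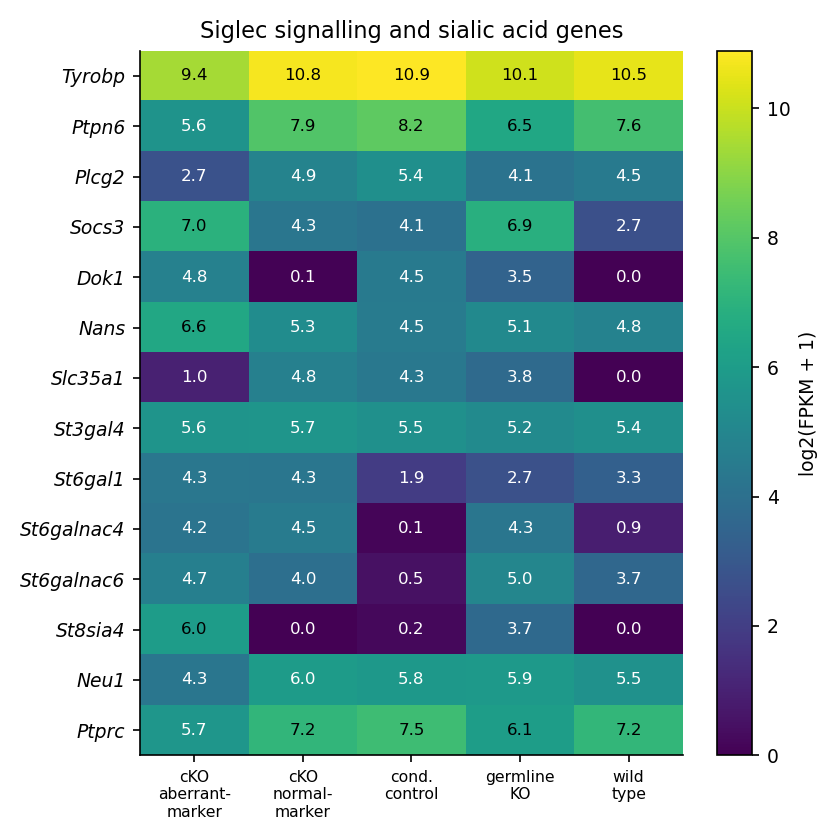
Levels of 14 genes of Siglec signalling and sialic acid metabolism as log2(FPKM + 1), printed in each cell and coloured from low (dark) to high (yellow), in the 5 libraries. Ptpn6 is lowest and Socs3 and St8sia4 highest in the aberrant-marker library, St3gal4 is nearly even, and Dok1 and Slc35a1 are at the bottom in the wild type. Dok1 is also near the bottom in the normal-marker library, and Slc35a1 is low in the aberrant-marker library.

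No gene of the other ligand lists was called in a knockout comparison, although some differed by 2 log2 units or more at levels under the floor of 20 FPKM. The 7 sialidase and esterase genes, of which 5 passed the filter, had median log2 differences of -1.54 for the aberrant-marker library against the conditional control and -0.24 for the germline knockout against the wild type. The lysosomal sialidase gene Neu1 was at 18.5 FPKM in the aberrant-marker library against 55.7 in the conditional control and at 57.2 FPKM in the germline knockout against 44.2 in the wild type. Under the floor, Siae was at 0.0567 FPKM in the aberrant-marker library against 9.20 in the conditional control (-3.27 log2 units). It was listed at 0 in the germline knockout against 10.6 FPKM in the wild type (-3.54). Casd1 stood at -3.46 and Neu3 at 2.94 in the first of these comparisons, and at 1.77 and -0.59 in the second. At 5 to 20 FPKM in the control, 15.7% and 16.1% of genes were under 0.5 FPKM in these knockout libraries. Of 12 ligand carriers and sulfation genes 7 passed, with medians of 0.24 and -0.51 in those comparisons. Ptprc (CD45), a sialylated partner of Cd22, was at 51.4 FPKM in the aberrant-marker library against 179 in the conditional control and at 66.2 FPKM in the germline knockout against 149 in the wild type. Between the control libraries the extension enzyme gene B3gnt2 was called, at 43.6 FPKM in the wild type against 9.30 FPKM in the conditional control.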

How the data were processed

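RNA was made into cDNA from 100 pg per sample with 18 cycles of PCR, per the labels' protocols; at such an input, rare transcripts can go unread. The authors deposited FPKM per RefSeq transcript in 10 columns, all matched to sample titles. The submitters' processing notes list Bowtie 1.1.2 and eXpress 1.5.1 without saying what each did, and the build is not given in the sources used here. Whether strand was kept is not stated, and the division of reads among similar transcripts is an estimate.

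FPKM were summed per Entrez gene with pandas 2.3.3 in Python 3.11.15. Depth, from the step of 1 read with GENCODE M21 lengths, was about 7.39 M to 9.41 M fragments per sample. Groups were averaged over 2 runs. The 11336 genes that reached 1 FPKM in 2 or more columns were compared after adding 1 FPKM, by the rule of 4-fold and 20 FPKM given above, which was tested on simulated data. The sequences are from RefSeq for GRCm38.p6, read with Biopython 1.88.

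The members, lists and the rule were chosen with earlier results of these data known. Named beside the members were up to 4 called genes of some lists and 11 pathway genes whatever their change. The 3 closest profiles of each member at 5 FPKM or more were named too, leaving out predicted genes. Called genes of the conventional dendritic cell, interstitial macrophage, monocyte, neutrophil and interferon lists were not named. Other genes were chosen after seeing their values. The lists of neutrophils (3, 4, 3, 2 and 3 of 10 genes at 1 FPKM or more in the aberrant-marker, normal-marker, conditional control, germline knockout and wild-type libraries), monocytes (3, 4, 5, 3 and 3 of 10) and mast cells and basophils (1, 0, 0, 0 and 0 of 8) were also read. Alternatives covered the pseudocount, filter, scaling, thresholds, single runs, the highest transcript, curated models and the control used.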

Additional observations from a re-analysis of the deposited data

Results flagged for a closer look

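Effects of opposite direction in the 2 mouse lines were found for Cd22 and Siglec1 in every pairing of runs, and with 1 library per group the difference was not tested. The lines also differed in Xist and Eif2s3y, so a gap between lines cannot be told apart from that difference. Cd22 stood at -0.62 log2 units in the aberrant-marker library against the conditional control and at 0.36 in the germline knockout against the wild type, a gap of -0.98 between the effects. In the normal-marker library Cd22 stood at 0.50, and with curated models alone the aberrant-marker value was 0.06. Siglec1 stood at 1.38 log2 units in the normal-marker library against the conditional control and at -3.86 in the germline knockout against the wild type, a gap of 5.24. The aberrant-marker library stood at -0.90 for Siglec1 against the conditional control, and the normal-marker library at -0.26 against the wild type.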

How the results depend on the processing

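In the 3 comparisons of an aberrant-marker or germline knockout library, Siglec5 stayed at -5.43 log2 units or lower under every alternative run, and no called difference changed its sign. The number of Siglec genes called was the main one in 54 of 62 recomputations. It was 2 in place of 0 between the normal-marker library and the conditional control with a 2-fold threshold (Siglec5 and Cd33). Leaving out 1 run gave 2 calls for the aberrant-marker library against the conditional control, 1 to 2 against the normal-marker library, 1 to 2 for the germline knockout against the wild type and 0 in the other comparisons. Of 329 recomputed differences of members 3 changed sign, all uncalled and given with Cd33, Cd22 and Siglec1, and the use of curated models alone was chosen after seeing the data.

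Over all genes, in the order aberrant-marker against conditional control, normal-marker against conditional control, aberrant-marker against normal-marker, germline knockout against wild type and wild type against conditional control, the main calls were 890, 201, 825, 691 and 239. They were 2010, 837, 1979, 1713 and 902 with a 2-fold threshold and 2180, 1064, 2165, 1926 and 1198 with a floor of 5 FPKM. A common total per column gave 411 for the normal-marker library, 1048 for the germline knockout and 495 for the wild type. Leaving out 1 run gave 906 to 924, 217 to 230, 858 to 862, 712 to 733 and 248 to 262. No paired analysis was possible because the titles number the samples 1 to 10 and share no replicate number. With 1 library per group the depth limits single values at about 1 read, and differences have no replicate check.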
